A study of Mus musculus with 8 samples.

Results

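The collagen genes of mouse skin were compared between Adam10 knockout and wild-type samples. A collagen was any gene whose symbol has the form Col, type number, a and chain number, with Col17a1 left out by the rule that chose the set. This gave 43 of the 19935 genes measured, read by 45 probe sets. Col6a5 and Col6a6 each had a further, dimmer probe set that was not kept. The study hybridised RNA from 4 knockout and 4 wild-type skin samples to Affymetrix Mouse Gene 1.0 arrays, 1 array per sample. The knockout samples carry an Adam10 knockout genotype and have cKO in their titles, letters that often stand for a conditional knockout. The wild-type samples carry the Adam10 wildtype genotype. The labels used here name no Cre driver, deleted exon, strain, sex or age, and they call the material both skin and primary skin cells. They do not say that each sample came from a separate animal, so p-values measure the spread between these samples. All levels below are log2 of the deposited intensity, differences are knockout minus wild type on that scale, and a gene is said to rise or fall where its Benjamini-Hochberg adjusted p over all 19935 genes in limma was under 0.05.

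Collagens are secreted or membrane proteins whose chains wind into a triple helix. Fibrillar collagens such as types I, III and V form the tensile fibres of the dermis and are made mainly by fibroblasts. Type IV collagen forms the sheet of basement membranes, type XVIII is a heparan sulphate proteoglycan of the same membranes, and type VII collagen forms the anchoring fibrils that tie the epidermal basement membrane to the dermis and is made by keratinocytes and fibroblasts. Adam10, the protease removed in the knockout, cuts Notch receptors and other proteins at the cell surface.

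Adam10 itself read 6.85, 7.00, 7.05 and 6.79 in knockouts 1 to 4, against 7.39, 7.33, 7.06 and 7.34 in wild types 1 to 4, a difference of -0.36 (SE 0.11, adjusted p = 0.064) that missed the threshold. Which exons were deleted is not stated in the labels used here, so this gene checks the labels only in part. The arrays differed in the markers of dermal and subcutaneous cells. The epidermal keratin Krt5 was high on every array, at 12.29 to 12.40 in knockouts and 11.75 to 12.07 in wild types. Across 15 skeletal muscle markers the mean level was 3.84 to 4.05 in knockouts, against 3.96, 4.25, 5.42 and 7.82 in wild types 1 to 4. The mean of 13 fibroblast markers was 4.56 to 4.75 in knockouts, against 4.60, 4.77, 5.26 and 6.57 in wild types 1 to 4, and the mean of 10 adipocyte markers was 3.36 to 3.60, against 3.50, 3.88, 3.72 and 6.83. The endothelial and mural means were at most 3.48 and 3.79 in knockouts, against 5.62 and 5.67 on wild type 4. Wild type 4 was the highest array for all 5 lists, and wild type 3 came next for all but the adipocyte list. The mean of 3 Y chromosome genes was 2.08 to 2.40 on knockouts 1 and 4 and wild type 1, and 5.27 to 5.64 on the others, so the sexes appear mixed within both genotypes. Array intensities have no zero, so no marker can be called absent. The comparison was therefore run with all arrays and without wild types 3 and 4, which leaves 2 wild-type arrays. In bulk tissue, fewer cells of a type and less RNA per cell cannot be told apart.

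**Figure D1:**
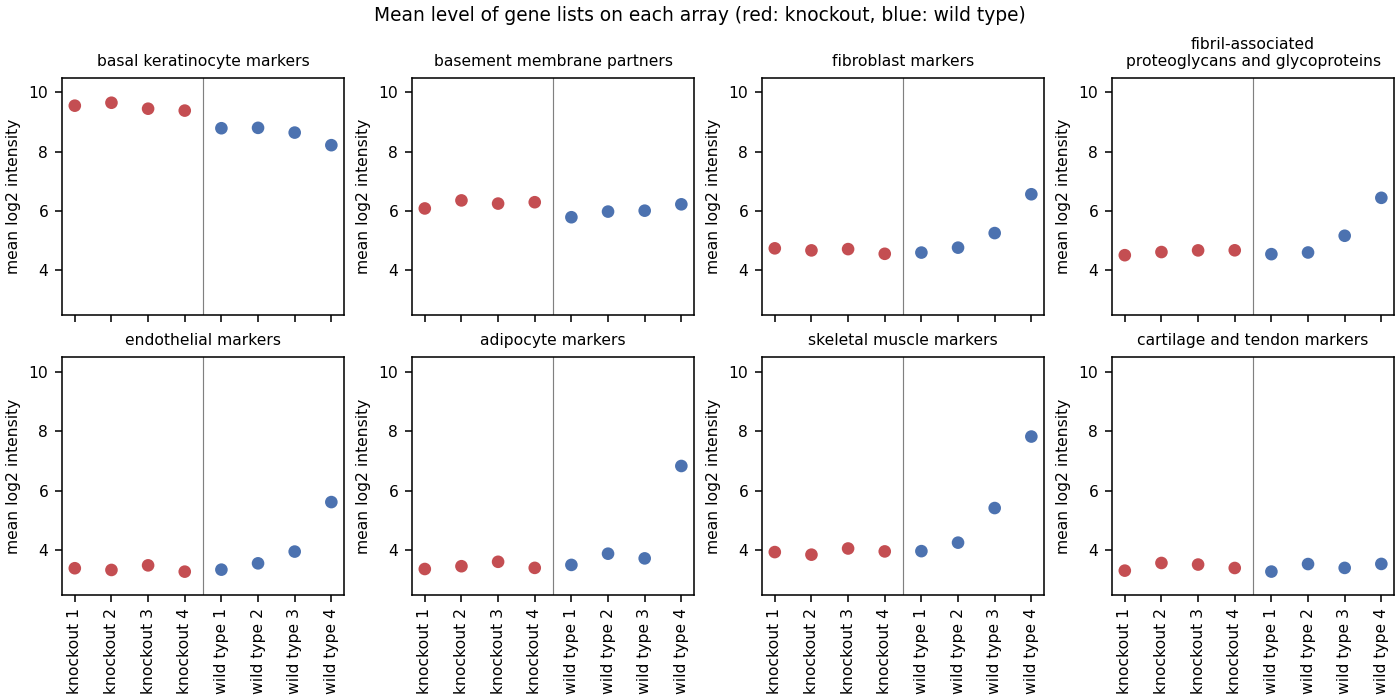
Mean log2 intensity (y axis) of 8 gene lists on each array (x axis), knockouts in red and wild types in blue. Muscle, fibroblast, adipocyte and endothelial markers peak on wild type 4 (7.82, 6.57, 6.83 and 5.62), while basal keratinocyte markers are at 9.39 to 9.65 on the knockout arrays and 8.22 to 8.81 on the wild-type arrays.

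With all 8 arrays 5 collagens rose in knockout skin and 1 fell. The 5 rises were Col18a1, Col7a1, Col4a5, Col4a6 and Col8a1, and the fall was Col8a2. With 1 array left out the number that rose was 1 without knockout 2 and 2 without knockout 1, 3 or 4 or wild type 3. It was 7 without wild type 4, and the number that fell was 7 without wild type 1. The shares of all genes in those fits are not given here, so these counts cannot be read as particular to collagens. After quantile normalization of all arrays 2 collagens rose, and 713 of all 19935 genes did. With all 8 arrays and no further normalization, 6.41% of all genes rose and 2.34% fell, 8.75% in all, against 11.6% and 2.33% of the collagens. Of all genes called, 73.2% were higher, and 56.5% after quantile normalization or 50.8% after cyclic loess. Without wild types 3 and 4, Col18a1 and Col5a2 rose and 0 collagens fell in limma. In that fit 13 of the 43 collagens, and 3944 of all 19935 genes, had an unadjusted limma p under 0.05. Over all genes 2.96% rose and 1.68% fell in that comparison, 4.64% in all, so the 2 collagen calls (4.65%) are at the share of all genes. Of all genes called there, 63.9% were higher, and 49.8% and 48.4% after the same normalizations. The median difference of the collagens was -0.23 with all arrays and -0.12 without the 2 wild types, against 0.003 and 0.01 for all genes.

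Col18a1, the basement membrane proteoglycan collagen whose end fragment is endostatin, had the largest rise. It read 7.54, 7.56, 7.15 and 7.08 in knockouts, against 6.13, 6.15, 6.17 and 6.36 in wild types. All knockout values lay above all wild-type values, and wild types 3 and 4 lay beside the other wild types. The rise was 1.13 (SE 0.13, adjusted p = 0.0020), or 2.19-fold, and 1.20 (SE 0.16, adjusted p = 0.0062) without wild types 3 and 4. The exact two-sided permutation p over the 70 assignments of the arrays was 0.0286, the smallest they can give. Any gene whose groups do not overlap has this p, and 12.2% of all genes lay apart with knockout higher. With all arrays Col18a1 passed whichever array was left out. With wild types 3 and 4 already out, it missed the threshold when wild type 1 or 2 was also removed (highest adjusted p = 0.066), which leaves 1 wild-type array that is assumed to vary like the others. RefSeq lists more than 1 start for Col18a1, and a probe set averages over the transcript, so the starts were not separated here. Its neighbours on the same chromosome, Col6a1 and Col6a2, did not pass in either comparison.

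Col7a1, the single chain of anchoring fibrils, read 7.18, 7.34, 7.14 and 7.35 in knockouts, against 6.63, 6.87, 6.75 and 6.43 in wild types. The groups did not overlap, and wild type 4, the array with the highest fibroblast marker mean, was the lowest. It rose by 0.58 (SE 0.11, adjusted p = 0.014). Without wild types 3 and 4 the difference was 0.51 (SE 0.13) and missed the threshold (adjusted p = 0.056). In that comparison Col7a1 passed in 5 of the 10 alternatives that left out no further array, the threshold of 0.10 among them. With knockout 2 removed from the full set it also missed (adjusted p = 0.057).

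Col4a5 and Col4a6, X-linked type IV chains of the epidermal basement membrane that lie head to head, both rose with all arrays. Col4a5 read 5.71, 5.80, 5.75 and 5.93 in knockouts, against 5.34, 5.48, 5.30 and 5.02 in wild types, a rise of 0.51 (SE 0.11, adjusted p = 0.024). Col4a6 read 5.39, 5.33, 5.28 and 5.42 in knockouts, against 4.83, 5.09, 4.79 and 4.41 in wild types, a rise of 0.57 (SE 0.14, adjusted p = 0.029). For both genes the groups did not overlap, and wild type 4 was again the lowest array. With wild types 1 and 2 alone the differences were 0.38 (adjusted p = 0.110) and 0.39 (adjusted p = 0.109) and neither passed. Each also missed the threshold when any 1 knockout or wild type 3 was left out (highest adjusted p = 0.078 for Col4a5 and 0.084 for Col4a6), after quantile normalization, and with the muscle marker mean as a covariate, and Col4a6 with the Y chromosome genes as a covariate.

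Col4a1 and Col4a2, the chains found in nearly all basement membranes including those of vessels, also lie head to head. Col4a1 read 6.71, 6.96, 6.81 and 6.79 in knockouts, against 6.25, 6.55, 6.54 and 7.49 in wild types. Col4a2 read 6.22, 6.42, 6.23 and 6.24 in knockouts, against 5.86, 6.05, 5.88 and 6.84 in wild types. For both, the knockouts lay above wild types 1 to 3 and below wild type 4. The differences were 0.11 and 0.12 with all arrays (adjusted p = 0.80 and 0.75), where their sign was negative after quantile normalization or cyclic loess, and 0.42 and 0.32 without wild types 3 and 4 (adjusted p = 0.110 and 0.18), beside 0.38 and 0.39 for Col4a5 and Col4a6. With the muscle marker mean as a covariate on all arrays Col4a1 passed (0.53, adjusted p = 0.036) and Col4a2 did not (0.45, adjusted p = 0.085), while Col4a5 and Col4a6 were at 0.36 and 0.37 (adjusted p = 0.079 and 0.085). The muscle marker mean was highest on wild types 3 and 4, so that fit is not independent of the comparison without them. Whether these chains differ from each other was not tested. Col4a3 and Col4a4, the other head-to-head pair and known from kidney and lung basement membranes, read 3.72 to 4.35 in knockouts and 3.88 to 4.51 in wild types and did not pass in either comparison.

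Bases upstream of the transcript start are shown for the collagens of the basement membrane zone that rose and for Col3a1, a dermal fibrillar collagen that followed wild types 3 and 4, so that the pair on the X chromosome can be read beside the others. They are from RefSeq, build GRCm38.p6, written 5′ to 3′ on the strand of the gene. Col18a1 is at chr10:77166531-77166780 (minus strand), Col7a1 at chr9:108953336-108953585 (plus), Col4a5 at chrX:141475169-141475369 (plus), Col4a6 at chrX:141474096-141474326 (minus) and Col3a1 at chr1:45311288-45311537 (plus). Capitals mark matches on either strand to GGGCGG (the GC box), TATAAA (the TATA box), CCAAT (the CCAAT box), TGACTCA (the site of the factor AP-1) or TGGGAA (the core of the site of RBPJ, the DNA-binding partner of Notch).
Col18a1: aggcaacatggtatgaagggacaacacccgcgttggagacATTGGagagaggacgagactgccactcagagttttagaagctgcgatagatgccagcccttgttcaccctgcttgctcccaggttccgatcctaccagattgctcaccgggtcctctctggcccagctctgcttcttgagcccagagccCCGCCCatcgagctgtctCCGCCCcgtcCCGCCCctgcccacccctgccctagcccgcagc
Col7a1: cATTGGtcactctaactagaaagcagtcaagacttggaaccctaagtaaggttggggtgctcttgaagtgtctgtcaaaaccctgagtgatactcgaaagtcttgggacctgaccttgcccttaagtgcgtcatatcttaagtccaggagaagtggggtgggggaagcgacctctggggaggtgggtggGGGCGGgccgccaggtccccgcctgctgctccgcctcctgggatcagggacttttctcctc
Col4a5: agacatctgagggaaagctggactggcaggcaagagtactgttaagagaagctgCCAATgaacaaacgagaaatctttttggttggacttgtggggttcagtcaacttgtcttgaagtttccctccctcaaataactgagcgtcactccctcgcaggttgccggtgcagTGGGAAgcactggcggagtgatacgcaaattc
Col4a6: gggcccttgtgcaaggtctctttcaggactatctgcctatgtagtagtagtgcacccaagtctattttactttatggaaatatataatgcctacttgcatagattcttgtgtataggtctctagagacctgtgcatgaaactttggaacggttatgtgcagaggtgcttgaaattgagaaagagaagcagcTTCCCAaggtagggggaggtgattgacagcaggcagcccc
Col3a1: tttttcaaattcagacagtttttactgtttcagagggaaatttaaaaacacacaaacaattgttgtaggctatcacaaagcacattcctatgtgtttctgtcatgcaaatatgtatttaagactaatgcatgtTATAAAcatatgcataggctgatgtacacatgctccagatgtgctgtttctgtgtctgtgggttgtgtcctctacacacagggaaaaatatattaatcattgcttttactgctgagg
GGGCGG occurred 3 times in the Col18a1 window and 1 time in that of Col7a1, and 32.7% of all windows of 250 bases in the RefSeq table hold it. CCAAT occurred 1 time each in Col18a1, Col7a1 and Col4a5 (33.8% of windows of 250 bases, 28.6% of windows of 201 bases), and TATAAA 1 time in Col3a1 (12.4%). TGGGAA occurred 1 time in Col4a5, where 18.0% of windows of 201 bases hold it, and 1 time in Col4a6, where 20.1% of windows of 231 bases do. TGACTCA was in none of the 5 windows shown (4.46% of windows of 250 bases). No match overlapped another in these windows. The windows shown are 1 per gene, at its outermost listed start. Among the 34 collagens with an entry in the table, GGGCGG was upstream of 21, CCAAT of 12, TGGGAA of 11, TATAAA of 4 and TGACTCA of 1. Here a collagen with several listed starts counted if any of its windows held the match. The shares above are of single windows, so these counts cannot be set against them, and no share by gene over all genes was computed. A match is a run of letters and says nothing of binding.

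The short-chain collagens of type VIII, which form hexagonal lattices in vessel walls and the cornea, moved in opposite directions. Col8a1 read 5.50, 5.69, 5.41 and 5.54 in knockouts, against 4.60, 5.33, 4.86 and 4.72 in wild types, a rise of 0.65 (SE 0.15, adjusted p = 0.027). Col8a2 read 4.26, 4.20, 4.34 and 4.15 in knockouts, against 4.61, 4.56, 4.64 and 4.90 in wild types, and fell by 0.44 (SE 0.10, adjusted p = 0.028). Neither pair of groups overlapped. Against wild types 1 and 2 alone the differences were 0.57 and -0.35 (adjusted p = 0.12 and 0.13). Both calls were lost when any 1 knockout or wild type 3 was left out (highest adjusted p = 0.094 for Col8a1 and 0.090 for Col8a2) and with the muscle marker mean as a covariate, and that of Col8a1 after quantile normalization. Col10a1, the short-chain collagen of hypertrophic cartilage, read 2.86 to 3.32 in knockouts and 3.02 to 3.34 in wild types.

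Most basal keratinocyte markers were also higher in knockouts. Of 9 such markers 8 rose with all arrays, where 6.41% of all genes did, and 5 without wild types 3 and 4, where 2.96% did. Those 5 were Itga3, Itga6, Itgb4, Dst and Col17a1. The keratins Krt5, Krt14 and Krt15 rose with all arrays, Krt5 by 0.37, and did not pass without wild types 3 and 4. The mean level of the 9 markers was 9.39 to 9.65 in knockouts against 8.22 to 8.81 in wild types, lowest on wild type 4. Col17a1, the hemidesmosome collagen set aside by the rule, rose by 1.19 (adjusted p = 0.0040) and by 0.96 (adjusted p = 0.0058) without wild types 3 and 4. The integrins Itga3 and Itga6 rose by 1.51 and 1.33 with all arrays. The part of these markers in the collagen rises was not tested. Among 16 laminins and other basement membrane partners 4 rose with all arrays, namely the laminin-332 chains Lamb3 (1.22) and Lama3 (1.04), the laminin chain Lamc1 (0.58) and the proteoglycan agrin, Agrn (0.61). Against wild types 1 and 2 alone, Lamb3 (1.06) and Lama3 (0.76) rose, and so did the laminin chains Lamb1 (0.54) and Lama4 (0.49), whose differences with all arrays were 0.23 and -0.47. Lamc1 and Agrn did not pass there.

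**Figure D2:**
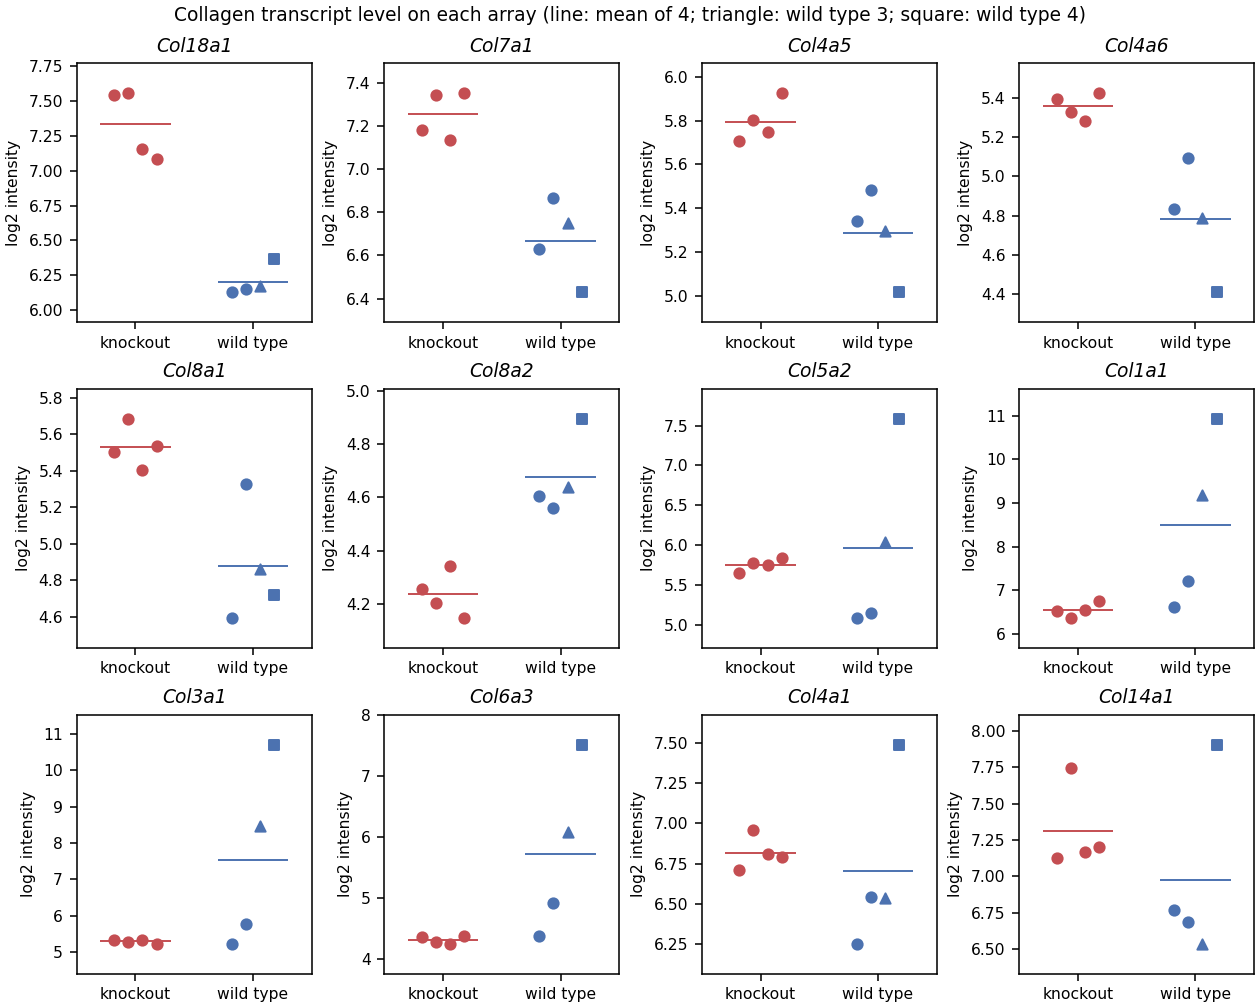
Log2 intensity (y axis) of 12 collagens on each array, knockouts left and wild types right, with the mean of 4 as a line, wild type 3 as a triangle and wild type 4 as a square. The knockouts sit above all wild types for Col18a1, Col7a1, Col4a5, Col4a6 and Col8a1, while Col1a1, Col3a1 and Col6a3 climb to 10.93, 10.70 and 7.52 on wild type 4.

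Among the 43 collagens the fibrillar Col3a1, Col1a2 and Col1a1 had the largest SD over the 4 wild-type arrays (2.53, 2.09 and 1.96). Col1a1, a chain of type I collagen, read 6.52, 6.37, 6.56 and 6.75 in knockouts, against 6.63, 7.21, 9.17 and 10.93 in wild types. Col1a2, its partner chain, read 6.39, 6.43, 6.46 and 6.76 in knockouts, against 6.41, 6.76, 8.94 and 10.90 in wild types. Col3a1, the chain of type III collagen, read 5.34, 5.29, 5.35 and 5.24 in knockouts, against 5.24, 5.78, 8.46 and 10.70 in wild types. The knockouts were tightly grouped (SD 0.16, 0.17 and 0.05) and overlapped wild type 1, while wild types 3 and 4 stood far above. Wild type 4 exceeded the mean of wild types 1 and 2 by 4.01, 4.31 and 5.19, which is 16.1-fold, 19.9-fold and 36.4-fold.

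With all arrays the genotype differences of these genes were large and imprecise. They were -1.93 (SE 0.76) for Col1a1, -1.74 (SE 0.81) for Col1a2 and -2.24 (SE 0.97) for Col3a1, and none passed (adjusted p = 0.14, 0.21 and 0.18). Against wild types 1 and 2 alone they were -0.37 (SE 0.17), -0.08 (SE 0.15) and -0.21 (SE 0.15), again with none passing (adjusted p = 0.28, 0.83 and 0.50). Col1a1 passed when wild type 1 alone was left out (adjusted p = 0.044), and Col1a1 and Col3a1 passed with array weights (adjusted p = 0.026 and 0.044), a fit that gives each array its own precision.

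Type V collagen, which controls the diameter of type I fibrils, gave 1 call. Col5a2 read 5.65, 5.77, 5.76 and 5.84 in knockouts, against 5.09, 5.15, 6.05 and 7.58 in wild types. The knockouts lay above wild types 1 and 2 and below wild types 3 and 4. The difference was -0.21 (SE 0.45, adjusted p = 0.81) with all arrays and 0.64 (SE 0.12, adjusted p = 0.017) without wild types 3 and 4, a rise of 1.55-fold. That call was lost without knockout 2, and also without wild type 1 or 2, which leaves 1 wild-type array. With the muscle marker mean as a covariate on all arrays the difference was 0.72 (adjusted p = 0.0042). That mean was highest on wild types 3 and 4, as was Col5a2, so this fit is not independent of the one without those arrays. Col5a1 read 5.55 to 5.96 in knockouts, against 5.56, 5.90, 6.12 and 7.23 in wild types, with differences of -0.46 (adjusted p = 0.36) and 0.01 (adjusted p = 0.98). Col5a3 had differences of -0.39 and -0.15 and did not pass. Col3a1 and Col5a2 are neighbours on chromosome 1, and their differences without wild types 3 and 4 were -0.21 and 0.64.

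The other fibrillar collagens are mainly those of cartilage (Col2a1, Col11a1, Col11a2) and the later-described Col24a1 and Col27a1. Levels of these 5 ran between 3.78 and 5.62 in knockouts, against 3.83 and 5.80 in wild types, their differences lay between -0.32 and -0.09 with all arrays, and none passed in either comparison. Col27a1 lay lower in every knockout than in any wild type, by 0.13 on average (adjusted p = 0.39). With all arrays 11 of 11 fibrillar collagens had a difference below 0, also after quantile normalization, median centring or cyclic loess, and without wild types 3 and 4 9 of 11 did (10 after quantile normalization or cyclic loess). The fibroblast marker mean stood at 5.26 and 6.57 on wild types 3 and 4, and its part in these signs was not tested.

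Type VI collagen, the beaded filament network around fibres, fat and muscle cells, repeated the order of the arrays. Col6a3 read 4.36, 4.28, 4.26 and 4.39 in knockouts, against 4.39, 4.92, 6.08 and 7.52 in wild types. Col6a1 read 6.20, 6.01, 5.69 and 5.77 in knockouts, against 5.44, 5.55, 6.49 and 7.92 in wild types. Col6a2 read 5.26, 5.58, 5.55 and 5.07 in knockouts, against 5.24, 5.79, 6.35 and 7.82 in wild types. Each was highest on wild type 4 and next highest on wild type 3, and Col6a1 was the 1 of these chains whose knockouts all lay above wild types 1 and 2. The differences were -1.40 (adjusted p = 0.14), -0.44 (adjusted p = 0.59) and -0.94 (adjusted p = 0.22) with all arrays, and -0.33, 0.42 and -0.15 without wild types 3 and 4, with none passing. Col6a3 passed without wild type 1 and with array weights (adjusted p = 0.041 and 0.025). The related chains Col6a4, Col6a5 and Col6a6, and Col28a1, read 3.45 to 5.34 in knockouts and 3.44 to 5.66 in wild types and did not pass. The dimmer probe set of Col6a5 read 1.93 to 2.43 over the 8 arrays and that of Col6a6 2.77 to 3.77.

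Fibril-associated collagens coat the surface of fibrils, and none of these 9 passed in either comparison. Col12a1 read 6.40, 6.79, 6.53 and 6.33 in knockouts, against 5.98, 5.89, 6.09 and 6.66 in wild types. Col14a1 read 7.13, 7.74, 7.17 and 7.21 in knockouts, against 6.77, 6.68, 6.54 and 7.91 in wild types. In both genes every knockout lay above wild types 1 to 3. The differences were 0.36 and 0.34 with all arrays (adjusted p = 0.22 and 0.48) and 0.58 and 0.58 without wild types 3 and 4 (adjusted p = 0.056 and 0.096), so neither passed. Both passed when wild type 4 alone was left out, by 0.53 for Col12a1 and 0.65 for Col14a1 (adjusted p = 0.025 and 0.025). With all arrays both also passed with array weights, and Col12a1 with the muscle marker mean as a covariate. Without wild types 3 and 4, Col12a1 passed in 5 and Col14a1 in 3 of the 10 alternatives that left out no further array. Col16a1 read 5.68 to 6.25 in knockouts and 5.51 to 6.15 in wild types, a difference of 0.03 (adjusted p = 0.92). The cartilage chains Col9a1, Col9a2 and Col9a3, with Col19a1, Col20a1 and Col22a1, read 3.38 to 5.60 in knockouts and 3.52 to 5.74 in wild types and did not pass. Col20a1 was lower in every knockout than in any wild type, by 0.21 on average (adjusted p = 0.23).

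Col15a1, the multiplexin of vessel and muscle basement membranes and the closest relative of Col18a1, did not pass. It read 4.50, 4.30, 4.31 and 3.91 in knockouts, against 4.31, 4.81, 4.83 and 6.10 in wild types, with differences of -0.76 (SE 0.32, adjusted p = 0.17) and -0.31 (SE 0.19, adjusted p = 0.41). Wild type 4 was the highest array for Col15a1, as for the means of the muscle, fibroblast, adipocyte, endothelial and mural markers, and the part of each was not tested. The transmembrane collagens Col13a1, Col23a1 and Col25a1 and the secreted Col26a1 read 3.53 to 5.26 in knockouts and 3.94 to 5.79 in wild types. Col13a1 read 4.67 to 4.74 in knockouts and 4.88 to 5.12 in wild types, with no overlap, and its difference of -0.31 (SE 0.09) narrowly missed the threshold (adjusted p = 0.057). Without wild types 3 and 4 the difference of Col13a1 was -0.30 (adjusted p = 0.198).

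Over the whole family the groups did not overlap for 5 collagens with knockout higher, the 5 that rose, where 12.2% of all genes showed such a gap (11.6% of collagens). They did not overlap for 4 with knockout lower, Col8a2, Col27a1, Col20a1 and Col13a1, where 5.86% of all genes did (9.30% of collagens). This count was 2 after median centring and 18 without wild type 1. The shares of all genes in those settings are not given here, and leaving out an array can only keep or raise such a count. Col27a1 was apart only by its highest knockout at 5.618 against its lowest wild type at 5.626. Wild type 4 was the highest of the 8 arrays for 25 of the 43 collagens, or 58.1%, against 19.2% of all genes. Wild type 4 lay at least 1 above the mean of wild types 1 and 2 for 11 collagens, or 25.6%, against 3.23% of all genes. These were Col1a1, Col1a2, Col3a1, Col5a1, Col5a2, Col4a1, Col6a1, Col6a2, Col6a3, Col14a1 and Col15a1. Of the 6 collagens called with all arrays, Col8a2 had its highest value on wild type 4, Col7a1, Col4a5 and Col4a6 had their lowest there, and Col18a1 and Col8a1 neither. The mean level of 32 of the 43 collagens was at or above the median of all genes, and all 43 were at or above the 25th percentile, with no detection calls to say which were above background.

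**Figure D3:**
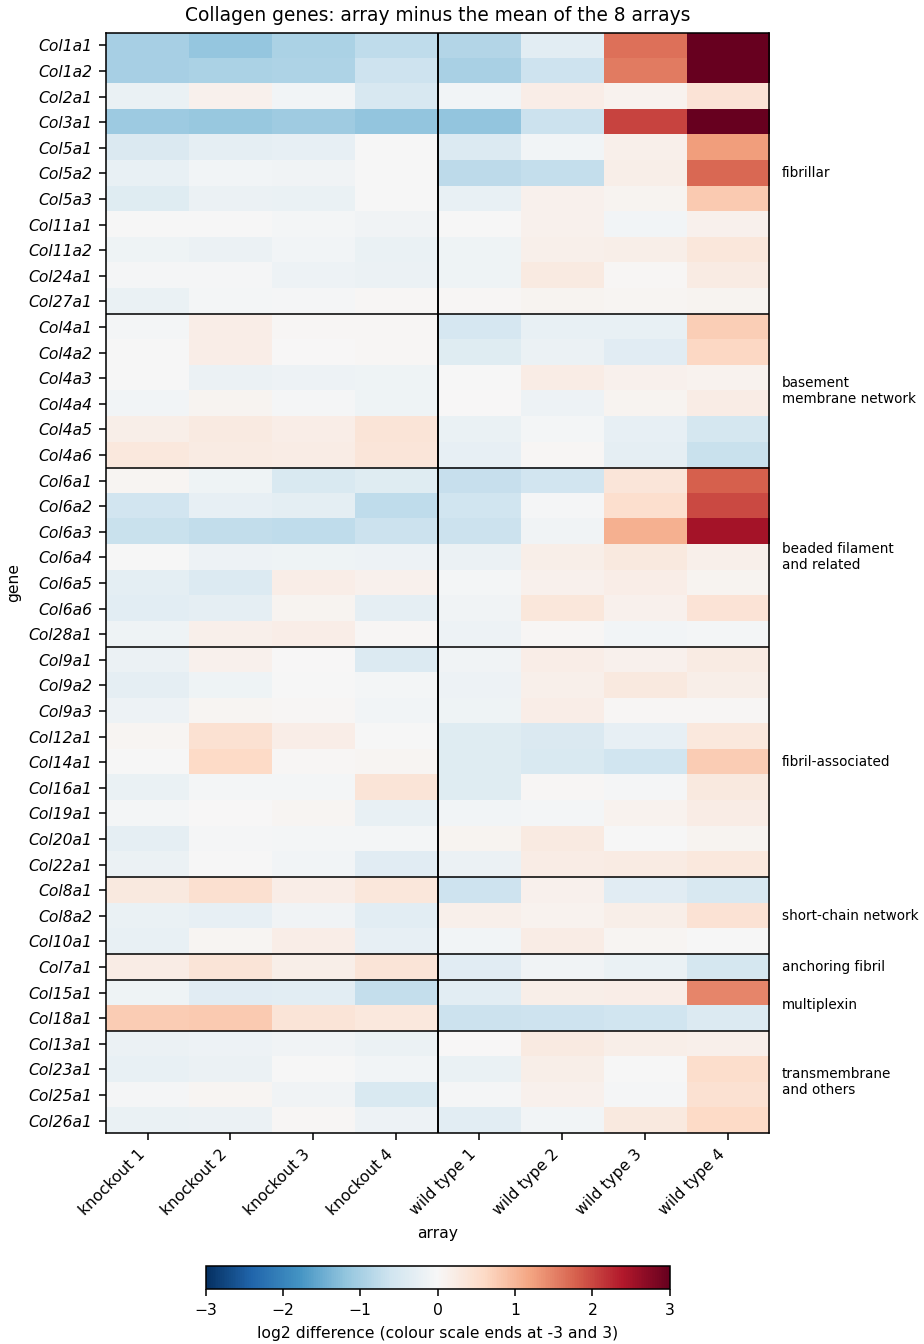
Log2 level of each of the 43 collagens (rows, by structural class) on each array (columns, knockouts left of wild types) minus the gene's mean over the 8 arrays, with colours ending at -3 and 3. Wild type 4 is the highest array for 25 genes, most strongly for Col3a1, Col1a1, Col1a2 and Col6a3, while Col18a1, Col7a1, Col4a5, Col4a6 and Col8a1 are highest in knockouts.

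**Figure D4:**
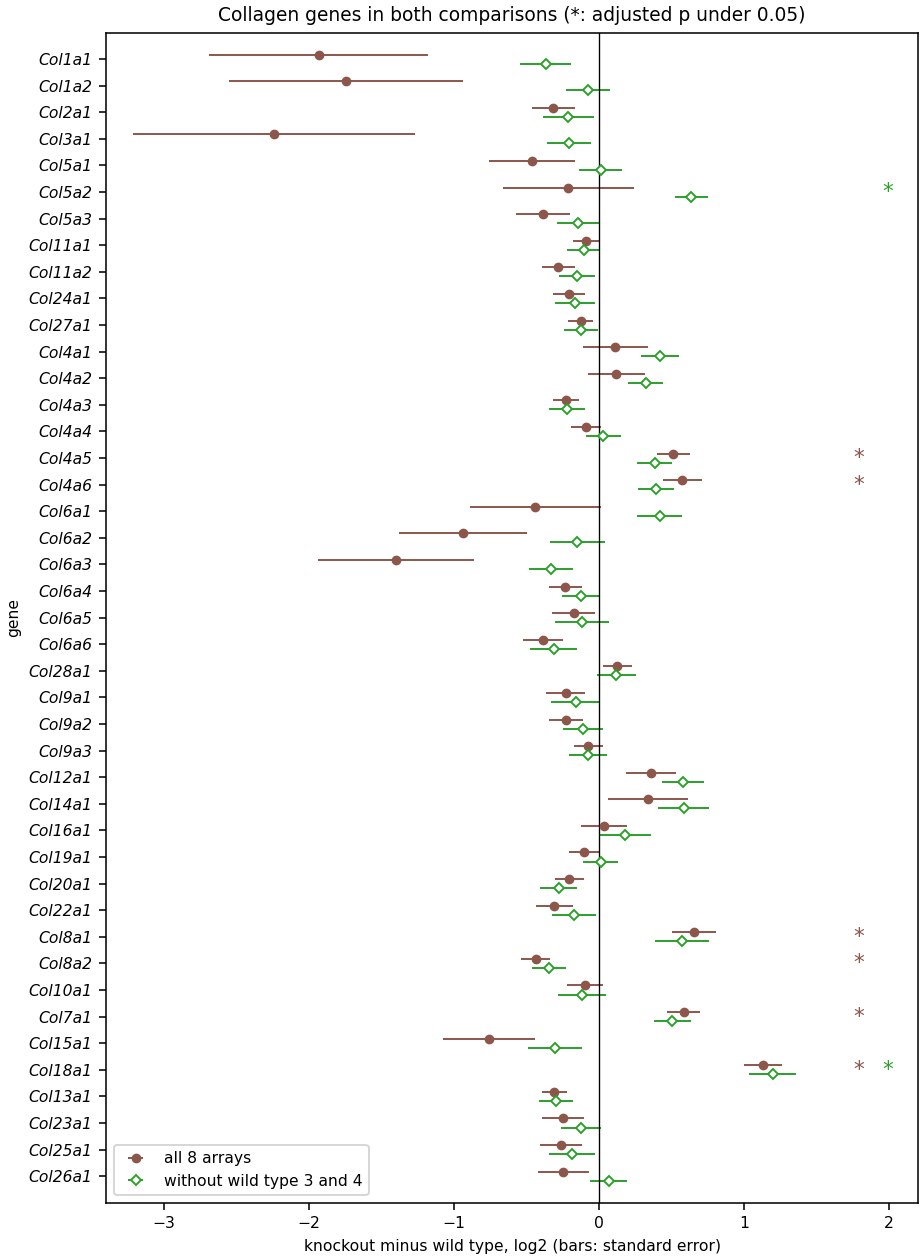
Knockout minus wild type (x axis, log2, with standard errors) for the 43 collagens with all 8 arrays (filled circles) and without wild types 3 and 4 (open diamonds), with an asterisk where the adjusted p was under 0.05. Both comparisons use the same knockouts and wild types 1 and 2; Col3a1 is at -2.24 and -0.21, Col5a2 at -0.21 and 0.64, and Col18a1 at 1.13 and 1.20.

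Genes that modify, process, bind or degrade collagen were read from named lists, beside the 8.75% of all genes called with all arrays and the 4.64% called without wild types 3 and 4. Of 18 biosynthesis enzymes and chaperones, with all arrays P3h2, a prolyl hydroxylase that acts on type IV collagen, rose by 0.81 (adjusted p = 0.013) and Pepd, the dipeptidase that recycles proline from collagen breakdown, fell by 0.70 (adjusted p = 0.015). In the comparison without wild types 3 and 4 the lysyl hydroxylases Plod3 (0.75) and Plod1 (0.65) rose and Pepd fell by 0.68. P3h2 did not pass there (0.62, adjusted p = 0.068). Of 11 processing and cross-linking enzymes, Bmp1, the protease that removes the procollagen C-propeptide and also matures type VII collagen, rose by 0.60 (adjusted p = 0.0040) and by 0.59 (adjusted p = 0.021) without those arrays. It read 7.61 to 7.75 in knockouts and 6.99 to 7.09 in wild types. Its relative Tll1 and the N-propeptide protease Adamts14 each rose by 0.61 with all arrays. Without wild types 3 and 4 neither passed (0.595 and 0.41, adjusted p = 0.080 and 0.167).

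Among 10 collagen receptors, Itga2 and Itgb1, the chains of the keratinocyte collagen receptor integrin alpha-2 beta-1, rose by 0.93 (adjusted p = 0.0072) and 0.89 (adjusted p = 0.021), and the receptor kinase Ddr1 by 0.60 (adjusted p = 0.028). Itga2 and Itgb1 also rose without wild types 3 and 4, by 0.92 and 1.15, and Ddr1 did not pass there (0.45, adjusted p = 0.079). Of 13 collagen-degrading proteases and inhibitors the membrane collagenase Mmp14 rose, by 0.64 with all arrays and 0.75 without those 2. Of 17 fibril-associated proteoglycans and glycoproteins 0 passed in limma with all arrays, where Fn1, fibronectin, had the smallest p (difference 0.41, adjusted p = 0.077), and without wild types 3 and 4 Sparc (0.96) and Dcn (0.74) rose. Of 10 elastic fibre genes Ltbp4, which binds latent TGF-beta, rose by 0.80 and 0.81 in the 2 comparisons.

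Of the cell markers outside the epidermis, 0 of 15 skeletal muscle, 10 adipocyte, 10 endothelial, 9 mural and 4 Schwann cell markers passed in either limma comparison. The smallest p in each list belonged to Acta1 (difference -2.40), Fabp4 (-2.23), Cldn5 (-0.80), Pdgfrb (-0.74) and Sox10 (0.42) with all arrays, with adjusted p from 0.091 to 0.23. Of 13 fibroblast markers 0 passed with all arrays, where Fap had the smallest p (-1.05, adjusted p = 0.088), and without wild types 3 and 4 Vim rose by 1.09 and Cd34 fell by 0.59. Of 12 cartilage and tendon markers Sox9, also a factor of the hair follicle, rose by 0.65 with all arrays. Sox9 did not pass without wild types 3 and 4 (0.54, adjusted p = 0.099). Of the 23 calls among these lists with all arrays, 10 held in each of the 8 fits that left out 1 array, namely Bmp1, P3h2, Itga2, Ltbp4, Lamb3, Itga3, Itga6, Itgb4, Dst and Col17a1. Lama3, Mmp14 and Krt14 were lost without knockout 2, Lamc1 without knockout 2 or wild type 3, and Pepd without knockout 2, knockout 3 or wild type 3. Adamts14, Ddr1, Itgb1, Tll1, Sox9, Krt15, Krt5 and Agrn were lost in 4 to 7 of the 8. In the smaller comparison Lamb3 and Itga3 held in each of the 6 such fits and the other 19 calls were lost in 1 or more.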

How the data were processed

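RNA of 4 knockout and 4 wild-type skin samples was labelled with biotin and hybridised to Affymetrix Mouse Gene 1.0 arrays, per the labels' protocols. The authors deposited an intensity for each probe set on each array, summarised by RMA per the submitters' processing notes. No version, setting or build of that step is known from the labels. RMA output is commonly on a log2 scale, but these values run from 0.817 to 11173 with array medians of 13.3 to 15.1, so they were read as linear and log2 was taken with no pseudocount. Of 35519 probe sets 21780 carry exactly 1 gene symbol in the platform annotation (1605 several, 12134 none), of which 21689 matched RefSeq by Entrez identifier with 0 symbols changed. Where a gene had several probe sets (998 genes), that of highest mean log2 was kept, leaving 19935 genes and no filter on dim ones.

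Knockout was compared with wild type in limma 3.58.1 under R 4.3.3 (lmFit, eBayes, two-sided, Benjamini-Hochberg over all genes, threshold 0.05), with all arrays and without wild types 3 and 4, and the fit was tested on simulated data. Arrays give no depth, and their number limits the precision. The table gives no slide or scan, so batches were not tested. The members and lists were chosen with earlier results of these data known. Every collagen may be named; those called, and a list of 15 chosen by name, are given on every array. From other lists all genes that passed are named up to 5 in a direction, otherwise the 3 with the smallest p, or, with 0 passing, the gene of lowest p. Itgb4, Dst, Krt5, Krt14 and Krt15 are named for their stability or as a tissue check, after their values were seen. Of 43 collagens 34 had an entry in the RefSeq promoter table, and windows were trimmed at the outermost annotated transcript end. Alternatives were other normalizations, filters, priors, thresholds, covariates, array weights and leaving out single arrays.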

Additional observations from a re-analysis of the deposited data

Results flagged for a closer look

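Each group of 4 arrays was searched for a value far from the other 3, for 43 collagens and 15 gene lists in both genotypes. Of these 116 groups 8 held such a value (6.90%), where chance gives about 5%, and 6 of the 8 are collagens, which made up 86 of the 116 groups. Col14a1 had a high value in both genotypes, 7.74 on knockout 2 (other knockouts 7.13 to 7.21) and 7.91 on wild type 4 (other wild types 6.54 to 6.77). Col4a2 was high on knockout 2 at 6.42 (others 6.22 to 6.24). Col6a4 was high on knockout 1 at 3.88 (others 3.73 to 3.75) and Col6a6 on knockout 3 at 5.34 (others 4.95 to 4.998). Col20a1 was low on knockout 1 at 3.83 (others 4.05 to 4.06). The adipocyte marker mean was 6.83 on wild type 4 (others 3.50 to 3.88) and the mural cell marker mean 3.79 on knockout 3 (others 3.69 to 3.71). Col1a1, Col1a2 and Col3a1 held none, because wild type 3 lay between wild type 4 and the other wild types.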

How the results depend on the processing

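With all arrays, 5 collagens were higher and 1 lower. The number higher was 2 after quantile normalization and 1 at a threshold of 0.01. Which collagens were higher also changed. With the muscle covariate Col4a5, Col4a6 and Col8a1 were lost and Col4a1, Col5a2 and Col12a1 were gained. Array weights added Col12a1 and Col14a1, and Col4a6 was lost with the Y chromosome genes as a covariate. The number lower was 2 after cyclic loess, with genes at or above the 25th percentile or the median level, at a threshold of 0.10 and with log2 of the value plus 16, was 5 with array weights, and was 0 at 0.01 and with the muscle covariate. Leaving out 1 array gave 1 to 7 higher and 0 to 7 lower, with 1 higher without knockout 2, 2 without knockout 1, 3 or 4 or wild type 3, and 7 without wild type 4, and with 7 lower without wild type 1. Collagens with no overlap and knockout lower numbered 4, with 2 after median centring, 4 to 18 with 1 array left out and 18 without wild type 1. Those with knockout higher numbered 5 to 9, with 9 without wild type 4. The shares of all genes in the fits with 1 array left out are not given here, for calls or for overlap. Leaving out an array can only keep or raise a count of groups that do not overlap. Without wild types 3 and 4, 2 were higher and 0 lower; 4 were higher at or above the 25th percentile and with log2 of the value plus 16, 8 at or above the median level (1 lower), 5 with a trended and robust prior and at 0.10, and 1 at 0.01. Leaving out 1 more array gave 0 to 3 higher, 0 without wild type 1 or 2 and 1 without knockout 2. The filters test fewer genes and the thresholds move the limit; the cause of the other changes was not tested. The muscle covariate reversed Col5a2 to 0.72 and Lama4 to 0.61 with all arrays. The muscle marker mean was highest on wild types 3 and 4, so this covariate is not independent of leaving those arrays out. Over all genes the number higher was 1277 with all arrays (350 at 0.01 to 2405 with array weights) and 591 without wild types 3 and 4 (31 with wild type 2 also left out to 1168 at or above the median level), and the number lower 467 (128 to 1216) and 334 (37 to 579). Of 3000 values of single genes under an alternative, 2636 kept their direction and side of the threshold or moved less than the spread. Of the rest 222 lost and 118 gained a call, 22 moved and 2 reversed. Most of these genes were not called, so the 2636 do not measure how stable the calls were. Among the collagens called with all arrays, Col18a1 alone held in every fit that left out 1 array. The count of 25 collagens highest on wild type 4 stayed within 1.5 times under the alternatives run. No paired analysis was possible because the labels pair no samples. The titles give each array a P number, 67, 68, 69 and 55 for knockouts 1 to 4 and 57, 58, 59 and 60 for wild types 1 to 4. The labels do not say what these mean, and apart from knockout 4 they run with genotype, so they were not used. The numbers 1 to 4 used here name the arrays of a genotype in accession order and pair none of them. Arrays have no depth, and probes without detection calls limit statements on dim collagens.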
